A study of Mus musculus with 6 samples.

Results

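The genes described here are 10 genes of VEGF and angiopoietin signalling: the ligands Vegfa, Vegfb, Vegfc, Pgf and Angpt1, the receptors Kdr, Flt1, Nrp1 and Tek, and Vwf, a product of endothelial cells. They were chosen by gene symbol, and all 10 were found among the 24062 genes of a table of RNA-seq counts. The table holds 3 libraries of wild-type (WT) retina, named WT-1, WT-4 and WT-23, and 3 of rd10 retina, named Rd10-3, Rd10-4 and Rd10-5. Both groups were on the C57Bl6/J strain at postnatal day 30, without treatment named in the labels, and each library came from 2 frozen retinas. Pde6b, the gene of the beta subunit of the rod phosphodiesterase, has a missense mutation in every cell of rd10 mice, and their rods die in the weeks after birth. Because the allele is a missense change, the count of Pde6b does not check the labels. Nothing in the labels says that libraries of 1 group are from different animals. The p-values therefore cover the spread among these libraries, which may be technical.

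VEGF-A is secreted by neurons and glia of the retina, in particular Müller cells and astrocytes, and its transcription rises in low oxygen through the HIF factors. It binds KDR (VEGFR2), the main signalling receptor of endothelial cells, and FLT1 (VEGFR1), which binds VEGF-A tightly, signals weakly and has a soluble form that traps the ligand. PGF and VEGF-B bind FLT1 but not KDR, VEGF-C binds mainly the lymphatic receptor FLT4 and also KDR, and neuropilin 1 (NRP1) is a coreceptor. Angiopoietin 1, from pericytes and other perivascular cells, activates the endothelial receptor TEK (TIE2) and stabilises vessels. Rods consume much of the oxygen that reaches the outer retina.

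The libraries held between 10923556 and 15818918 counts, and library WT-1 differed most from another of its group, where chi-square per degree of freedom was 57.8 against WT-23 (7.36 to 22.1 for the other pairs within groups). The retinal label was checked on 12 rod markers, which summed to between 101000 and 115000 CPM in WT and between 20400 and 29900 CPM in rd10. CPM here are counts scaled by TMM library size. In whole retina, fewer cells of a type and less RNA per cell cannot be told apart.

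In rd10 retina, 4 of the 10 genes rose: Pgf, Kdr, Nrp1 and Vwf. The other 6 genes (Vegfa, Vegfb, Vegfc, Flt1, Tek and Angpt1) were not called, and none fell. The test was edgeR's quasi-likelihood test with Benjamini-Hochberg adjustment over 13905 genes and a threshold of 0.05. It called 14.4% of all genes tested, 7.12% as higher and 7.32% as lower in rd10. All 10 genes passed the filter on low counts and had positive log2 fold changes of rd10 over WT, with a median of 0.63 against -0.037 over all genes tested. Scaling on genes of inner retinal neurons in place of TMM lowers all log2 fold changes by a median of 0.268, or -0.268, and turned the values of Vegfa, Vegfb and Tek negative. With library size alone they were raised by 0.239. The rd10 libraries lay wholly above the WT libraries for 5 of the 10 (Pgf, Kdr, Flt1, Nrp1 and Vwf), against 17.1% of all genes tested, and wholly below for none, against 18.6% (35.7% in either direction).

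**Figure D1:**
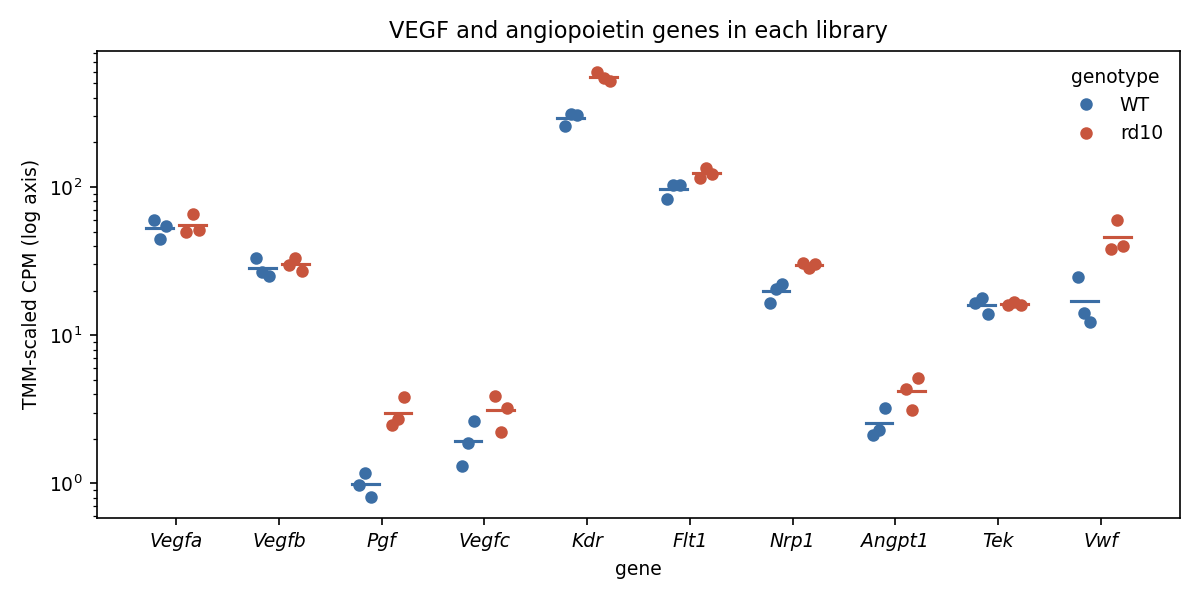
TMM-scaled CPM (log axis) of the 10 genes in each library, with WT in blue and rd10 in red and a bar at each group mean. The groups are apart for Pgf, Kdr, Flt1, Nrp1 and Vwf, and overlap for Vegfa, Vegfb, Vegfc, Angpt1 and Tek.

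**Figure D2:**
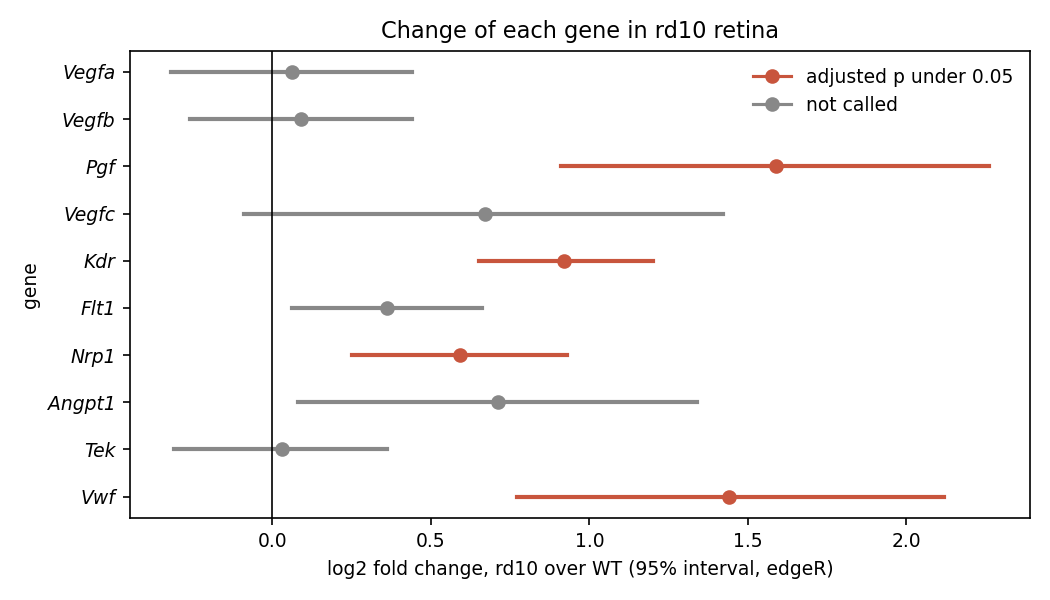
Log2 fold change of rd10 over WT for each gene, with its 95% interval from the edgeR fit. Red marks the 4 genes with an adjusted p under 0.05 (Pgf, Kdr, Nrp1 and Vwf), and the interval of Kdr runs from 0.65 to 1.2.

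Among the ligands, Vegfa did not differ detectably between the genotypes. It had 60.3, 44.5 and 54.7 CPM in the WT libraries (WT-1, WT-4 and WT-23) and 49.3, 65.6 and 51.4 CPM in the rd10 libraries (Rd10-3, Rd10-4 and Rd10-5). The groups overlap, with the highest value in Rd10-4 and the lowest in WT-4. The log2 fold change was 0.06 ± 0.16 (SE, n = 3 per group; edgeR adjusted p = 0.838), with a 95% interval from -0.32 to 0.44. Its sign turned without WT-4 (-0.03), without Rd10-4 (-0.08) and with a GC trend removed (-0.01). Vegfb, a ligand of FLT1 linked to fatty acid uptake, had 33, 26.5 and 25.2 CPM in WT and 29.9, 33 and 27.1 CPM in rd10. These groups overlap as well, and the log2 fold change was 0.09 ± 0.15, with a 95% interval from -0.26 to 0.44 (edgeR adjusted p = 0.738).

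Pgf, which encodes placental growth factor, had the largest fold change of the 10 with all libraries in, though Vwf stood above it without WT-1 (1.80 against 1.58 on the log2 scale) and without Rd10-5 (1.53 against 1.37). WT-1, WT-4 and WT-23 gave 12, 17 and 12 reads, and Rd10-3, Rd10-4 and Rd10-5 gave 32, 32 and 50. Every rd10 library exceeded every WT library, although the gene stayed rare, with 0.993 ± 0.19 CPM in WT and 3 ± 0.71 CPM in rd10 (SD, n = 3 per group). The log2 fold change was 1.59 ± 0.29 (edgeR adjusted p = 0.00972), a 3-fold rise, and the call held in all 17 alternatives. Vegfc had 1.31, 1.88 and 2.64 CPM in WT and 3.91, 2.22 and 3.2 CPM in rd10. Only Rd10-4 fell within the range of WT, and the log2 fold change of 0.67 ± 0.33 missed the threshold (edgeR adjusted p = 0.215; 95% interval from -0.09 to 1.42).

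Kdr was the most abundant of the 10 genes, and it rose. The WT libraries had 257, 309 and 305 CPM and the rd10 libraries 597, 540 and 517 CPM. The lowest rd10 value was well above the highest WT value, and the means were 290 ± 29 and 551 ± 41 CPM (SD, n = 3 per group). The log2 fold change was 0.92 ± 0.12 (SE; edgeR adjusted p = 0.00223), a 1.9-fold rise that was called in each of the 17 alternatives. The other VEGF-A receptor gene, Flt1, had 82.8, 103 and 103 CPM in WT and 115, 135 and 122 CPM in rd10. Its groups did not overlap, but the log2 fold change of 0.36 ± 0.13 missed the threshold (edgeR adjusted p = 0.104; 95% interval from 0.06 to 0.66). Flt1 was called after removal of a GC trend (0.39, edgeR adjusted p = 0.0113) and with library size alone (0.60, adjusted p = 0.0174). With inner neuron scaling its value was 0.09 (adjusted p = 0.736), and without both WT-1 and Rd10-4 it was 0.20 (adjusted p = 0.243).

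Within single libraries, the ratio of Kdr to Flt1, each per kilobase of transcript, was 3.61, 3.48 and 3.44 in WT and 6.03, 4.64 and 4.93 in rd10. The WT values lay close together, and each rd10 value was higher. The ratio of Vegfa to Kdr, on the same scale, was 0.403, 0.247 and 0.307 in WT and 0.142, 0.209 and 0.171 in rd10. Here each rd10 value was below each WT value. These ratios were chosen after their values were seen and were not tested.

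**Figure D3:**
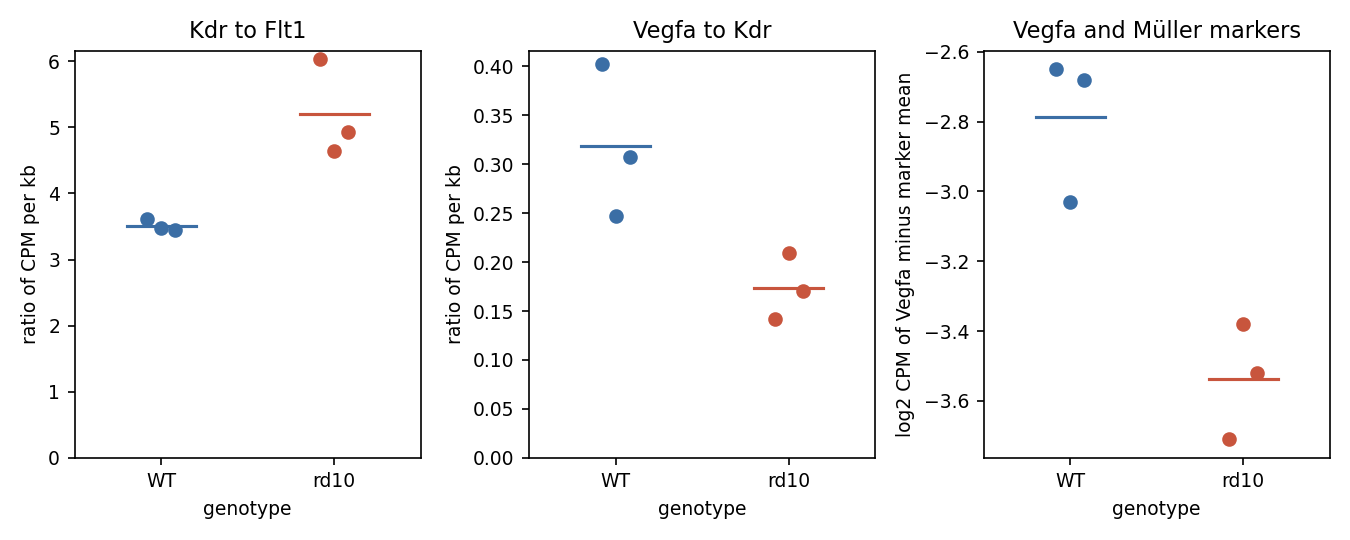
Per library, the ratios of Kdr to Flt1 and of Vegfa to Kdr (both from CPM per kilobase of transcript), and log2 CPM of Vegfa minus the mean of Müller cell markers. Bars mark group means; in each panel the 3 WT and 3 rd10 libraries do not overlap.

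Both receptor genes lie on mouse chromosome 5 (mm10), Pgf on chromosome 12 (85166635 to 85177790, minus strand), Nrp1 on chromosome 8 (128358604 to 128503363, plus strand) and Vwf on chromosome 6 (125546774 to 125686679, plus strand). In the authors' deposited table, Kdr runs from 75932827 to 75978458 and Flt1 from 147561604 to 147726011, both on the minus strand. The same authors' deposited table gives Kdr an FPKM of 118.9 in WT and 225.4 in rd10, and Flt1 one of 21.3 and 27.4. The 250 bases before the RefSeq start of 4 genes are printed here (GRCm38.p6). For Pgf and Nrp1 the RefSeq start lies inside the span just given, which comes from GENCODE and opens further upstream, so their windows fall within that span, and the Kdr window overlaps its span by a few bases. They are the 3 called genes for which the promoter table has an entry, and Flt1 as the paralog of Kdr. They run 5′ to 3′ on each gene's strand, from chr5:75978456-75978705 for Kdr (minus), chr5:147726012-147726261 for Flt1 (minus), chr12:85177314-85177563 for Pgf (minus) and chr8:128358823-128359072 for Nrp1 (plus). Capitals mark matches, on either strand, to GCGTG or ACGTG (cores of the hypoxia response element), GGAAG (ETS factors), GGAATG (TEAD factors) and GGGCGG (the GC box).
Kdr: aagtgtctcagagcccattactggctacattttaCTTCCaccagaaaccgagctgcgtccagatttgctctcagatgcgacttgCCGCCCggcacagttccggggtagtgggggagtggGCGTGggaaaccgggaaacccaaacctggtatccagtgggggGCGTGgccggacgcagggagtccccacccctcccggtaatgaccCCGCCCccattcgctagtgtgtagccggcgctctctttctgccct
Flt1: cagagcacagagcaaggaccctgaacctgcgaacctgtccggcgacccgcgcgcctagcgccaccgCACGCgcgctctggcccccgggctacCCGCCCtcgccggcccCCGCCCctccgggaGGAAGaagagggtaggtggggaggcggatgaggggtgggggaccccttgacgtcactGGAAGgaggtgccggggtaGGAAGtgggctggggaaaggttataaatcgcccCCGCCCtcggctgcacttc
Pgf: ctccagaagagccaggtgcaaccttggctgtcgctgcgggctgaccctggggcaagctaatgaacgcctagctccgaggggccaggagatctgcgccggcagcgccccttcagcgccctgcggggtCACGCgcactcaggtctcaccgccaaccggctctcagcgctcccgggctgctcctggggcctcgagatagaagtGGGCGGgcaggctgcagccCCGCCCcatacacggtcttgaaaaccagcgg
Nrp1: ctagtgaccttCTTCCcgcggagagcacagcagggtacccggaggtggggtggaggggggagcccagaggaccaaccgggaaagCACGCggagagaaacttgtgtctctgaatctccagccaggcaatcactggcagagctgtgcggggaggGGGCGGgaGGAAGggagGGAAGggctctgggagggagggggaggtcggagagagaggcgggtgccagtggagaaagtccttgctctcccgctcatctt
Of the 10 genes, 8 had an entry. GCGTG stood in 5 of these 8 (Vegfb, Pgf, Kdr, Flt1 and Nrp1), against 28.2% of 32851 such windows of all genes, and GGGCGG in 7, all but Tek, against 32.7%. GGAAG stood in 4 (Vegfa, Kdr, Flt1 and Nrp1), against 64.1%. ACGTG and GGAATG stood in none of the 8, against 16.6% and 12.6% of all windows. GGAAG and GGAATG share their first letters, and matches to GGGCGG can overlap one another. GCGTG stood 2 times in the Kdr window, beginning 131 and 89 bases before the start, and GGAAG 3 times in the Flt1 window. The windows of the 8 genes held from 51.2% GC (Tek) to 76.4% (Vegfb), and the windows of all genes were not matched for GC. Each of the 8 genes gave only its most upstream window, while the windows of all genes count every entry. A match describes letters and is not evidence of binding.

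Nrp1, the coreceptor, had 16.4, 20.5 and 22.3 CPM in WT and 30.7, 28.4 and 30.2 CPM in rd10. The rd10 libraries lay close together and above all WT libraries. The log2 fold change was 0.59 ± 0.15 (SE, n = 3 per group; edgeR adjusted p = 0.034). This call did not survive leaving out WT-4 (edgeR adjusted p = 0.123) or any single rd10 library (0.141, 0.077 and 0.105 without Rd10-3, Rd10-4 and Rd10-5). It was also lost in a test against a minimum fold of 1.2 (0.0981) and with inner neuron scaling (log2 fold change 0.31, adjusted p = 0.232). Nrp1 is not particular to vessels, and neurons and macrophages express it too. All 15 tested markers of microglia and macrophages, of 16 listed, rose, and the list summed to between 118 and 133 CPM in WT and between 361 and 463 CPM in rd10, with no marker at 0 in all libraries. Cx3cr1, the fractalkine receptor gene, had 10.4 ± 0.85 CPM in WT and 30.4 ± 2 in rd10. Their part in the rise of Nrp1 was not tested.

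In the angiopoietin branch, Tek was nearly level. It had 16.5, 17.7 and 13.9 CPM in WT and 16.1, 16.7 and 16.1 CPM in rd10. The rd10 values lay inside the range of WT, with a log2 fold change of 0.03 ± 0.14 and a 95% interval from -0.31 to 0.36 (edgeR adjusted p = 0.925). Angpt1, its activating ligand, had 2.13, 2.30 and 3.25 CPM in WT and 4.30, 3.15 and 5.17 CPM in rd10. Rd10-4 lay just below WT-23, and the log2 fold change of 0.71 ± 0.27 missed the threshold (edgeR adjusted p = 0.124; 95% interval from 0.08 to 1.34). Removal of a GC trend brought Angpt1 past the threshold (0.84, edgeR adjusted p = 0.0106), as did library size alone (0.95, adjusted p = 0.042).

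Vwf encodes von Willebrand factor, which endothelial cells and megakaryocytes make and release for platelet adhesion. It had 301, 203 and 180 counts in WT and 495, 707 and 527 counts in rd10. In CPM these were 24.6, 14.1 and 12.2 against 38.0, 60.2 and 40.1. The groups do not overlap, although both spread widely, with WT-1 and Rd10-4 the highest of their groups. The log2 fold change was 1.44 ± 0.29 (SE, n = 3 per group; edgeR adjusted p = 0.0147), a 2.72-fold rise. The call was lost without WT-4 (1.35, adjusted p = 0.0686) and in no other alternative. Among 8 platelet markers, 3 were tested and none was called by edgeR, DESeq2 or limma voom. Of the 3, 1, Itga2b, was higher at an unadjusted p under 0.05 by edgeR. Its log2 fold change, 1.44 ± 0.41, was as large as that of Vwf and just missed the threshold (edgeR adjusted p = 0.0532). It had few reads, 5, 7 and 6 in WT and 12, 21 and 12 in rd10. Gp1bb had 0.54 ± 0.25 and Itgb3 0.33 ± 0.53. A platelet or megakaryocyte part in the rise of Vwf was not tested. The 5 not tested were Pf4 and Gp1ba, with at most 2 counts in any library, Gp9, with at most 1, Gp6, with 0 in all 6, and Ppbp, with 0 in each WT library and 3, 1 and 2 in rd10. The list summed to between 7.46 and 12.3 CPM in WT and between 13.1 and 15.9 CPM in rd10, most of it Gp1bb (8.15 ± 2.7 and 11.8 ± 1.3 CPM). With library size alone and with a GC trend removed 2 of the 3 were called higher, and 1 was with upper quartile scaling and without WT-1.

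Per kilobase of its longest coding transcript, Kdr stood above the other 9 genes in both genotypes, with 49.0 ± 4.9 CPM per kilobase in WT and 93.0 ± 7.0 in rd10 (SD, n = 3 per group). Next in WT came Vegfb (22.0 ± 3.3), Vegfa (15.4 ± 2.3) and Flt1 (14.0 ± 1.7), of which Vegfa and Flt1 did not differ beyond their spread. Nrp1 (5.48 ± 0.85), Tek (3.45 ± 0.42) and Vwf (1.92 ± 0.76) followed. The lowest in WT were Vegfc (0.794 ± 0.27), Angpt1 (0.601 ± 0.14) and Pgf (0.477 ± 0.089), whose ranges touch. In rd10, Vwf (5.22 ± 1.4) stood above Tek (3.51 ± 0.071), and Flt1 (18.0 ± 1.5) and Vegfa (16.1 ± 2.6) again did not differ beyond their spread. Pgf, with 1.44 ± 0.34 CPM per kilobase in rd10, stood there near Vegfc (1.27 ± 0.35) and Angpt1 (0.988 ± 0.24). The order depends on which transcript length is used, since the transcripts present in these retinas are not known.

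Most other endothelial genes were not called. Of 22 endothelial markers, all tested, 1 rose (Mfsd2a) and none fell by edgeR, with a median log2 fold change of 0.01. At an unadjusted p under 0.05, 1 (Emcn) was lower. DESeq2 and limma voom each called 1 higher and none lower. Without WT-1 the count was 1 higher and 2 lower, as it was with inner neuron scaling, and without WT-4 it was 0. With the GC trend removed it was 1 higher and 1 lower (Emcn, -0.65, edgeR adjusted p = 0.0387). The list summed to between 176 and 232 CPM in WT and between 188 and 212 CPM in rd10. Pecam1, an endothelial adhesion molecule, had a log2 fold change of -0.17 ± 0.16, and Cdh5, the endothelial cadherin, one of 0.07 ± 0.30 (edgeR adjusted p = 0.515 and 0.898). Mfsd2a, a lipid transporter of the blood-retina barrier, rose by 1.04 ± 0.20 on the log2 scale (edgeR adjusted p = 0.0108), and lost the call without WT-4 (adjusted p = 0.0514). The highest of the 22 markers per kilobase was Ly6c1, at 22.6 CPM per kilobase in WT and 22.2 in rd10, below Kdr in each genotype. Kdr transcripts have also been described in neurons and glia of the retina, and its source was not tested here.

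**Figure D4:**
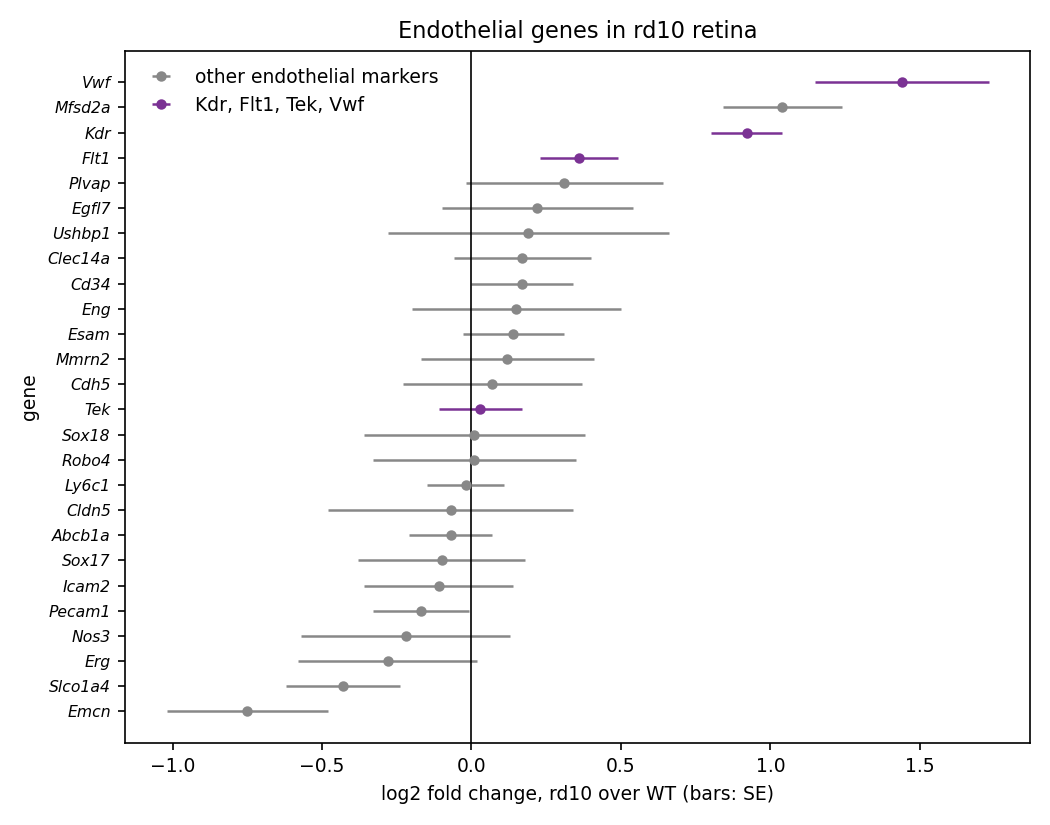
Log2 fold change of rd10 over WT (bars are SE) for Kdr, Flt1, Tek and Vwf in purple and 22 other endothelial markers in grey. Vwf (1.44), Mfsd2a (1.04) and Kdr (0.92) stand at the top, and the median of the 22 markers is 0.01.

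Set against the mean log2 CPM of these 22 markers in the same library, Kdr stood at 5.13, 5.74 and 5.98 in WT and at 6.70, 6.39 and 6.42 in rd10. Every rd10 value was higher, by 0.89 ± 0.27 on average (SE). A two-sided exact permutation test of 3 libraries against 3 gave p = 0.1, its lowest possible value. Vwf stood at 1.75, 1.30 and 1.35 in WT and at 2.73, 3.23 and 2.73 in rd10, a difference of 1.43 ± 0.22 (exact permutation p = 0.1, n = 3 per group). For Flt1 the difference was 0.33 ± 0.27 (exact permutation p = 0.4, n = 3 per group), and 0.0657 without WT-1. Tek differed by -0.01 ± 0.14 (exact permutation p = 1). Adjusted over 5 such tests, the one of Vegfa against Müller cell markers included, the exact p was 0.167 for Kdr, Vwf and Vegfa, 0.5 for Flt1 and 1 for Tek. With the median of the markers in place of their mean, the 4 differences were 0.534, 1.08, -0.0247 and -0.361 for Kdr, Vwf, Flt1 and Tek.

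Vegfa was set in the same way against 14 markers of Müller cells. Of these, 11 rose and none fell by edgeR (6 rose without WT-4 or with inner neuron scaling, and 7 without Rd10-3), and the list summed to between 9270 and 10400 CPM in WT and between 14400 and 17400 CPM in rd10. Those with the smallest p were Clu, the clusterin gene (1.72 ± 0.18 on the log2 scale), Crym, the mu-crystallin gene (1.5 ± 0.16), Cav1, the caveolin 1 gene, which endothelial cells express too (1.06 ± 0.13), and Slc1a3, a glutamate transporter gene (0.72 ± 0.11). Relative to the mean of the 14, log2 CPM of Vegfa was -2.65, -3.03 and -2.68 in WT and -3.71, -3.38 and -3.52 in rd10. Each rd10 value was lower, by -0.75 ± 0.16 on average (SE; exact permutation p = 0.1, adjusted 0.167, n = 3 per group). Of 5 tested astrocyte markers, 3 rose (Gfap, Pdgfra and Aldh1l1) and none fell by edgeR. The tested markers not called were S100b (0.21 ± 0.15 on the log2 scale) and Gja1 (-0.78 ± 0.30). Pax2, too rare to be tested, had 0.474 ± 0.24 CPM in WT and 0.491 ± 0.4 in rd10. Whether the 3 rises came from astrocytes or from Müller cells was not tested. Gja1 was lower at an unadjusted p under 0.05, and 1 marker was called lower without Rd10-5 and with inner neuron scaling. The 6 listed summed to between 106 and 165 CPM in WT and between 442 and 574 CPM in rd10. In rd10 most of that sum was Gfap, with 356 ± 51 CPM against 55.3 ± 21 in WT (SD, n = 3 per group).

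Of the 21 other genes of the pathway, 16 were tested and edgeR called none (unadjusted p under 0.05 for 5 higher and 1 lower), with a median log2 fold change of 0.25 against -0.037 over all genes. The list holds the remaining ligands, receptors and phosphatase of both branches and the Notch, apelin and norrin partners of vessel growth. The count was 6 higher and 1 lower with the GC trend removed, 6 higher with library size alone, 4 higher without WT-1 and without both WT-1 and Rd10-4, 1 higher without WT-23, 1 lower without Rd10-5 and with inner neuron scaling, and none with limma voom. DESeq2 called 2, both higher: Plxnd1, the semaphorin receptor gene (1.03, adjusted p = 0.0163), and Lrp5, the norrin coreceptor gene (0.78, adjusted p = 0.048). In the edgeR fit Plxnd1 had 1.02 ± 0.34 and Lrp5 0.76 ± 0.29 (adjusted p = 0.0881 and 0.12). Angpt2, the ligand that opposes angiopoietin 1 at TEK, had 6.19 ± 0.83 CPM in WT and 6.41 ± 0.84 in rd10 (SD, n = 3 per group). Plcg1, the phospholipase gene downstream of KDR, had 33.6, 30.2 and 25 CPM in WT and 34.8, 40.6 and 37.7 in rd10, without overlap, at 0.35 ± 0.15 (edgeR adjusted p = 0.154). Ptprb, the endothelial phosphatase that acts on TEK, had 37 ± 1.9 CPM in WT and 34.6 ± 1.1 in rd10 and a log2 fold change of -0.10 ± 0.11, Tie1 one of -0.05 ± 0.33 and Nrp2 one of -0.02 ± 0.14. Apln, the ligand gene of the apelin receptor, had -0.95 ± 0.36, below WT in all 3 rd10 libraries but not called by edgeR (adjusted p = 0.115).

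Of 20 tested genes that low oxygen induces, of 22 listed, 4 fell and none rose by edgeR (1 higher at an unadjusted p under 0.05; none higher by DESeq2 or limma voom), with a median of -0.02. With library size alone 1 rose and 3 fell. Ndrg1, a stress-induced gene, had 356 ± 10 CPM in WT and 214 ± 14 in rd10, with a log2 fold change of -0.74 ± 0.10 (SD for CPM, SE for the fold change, n = 3 per group; edgeR adjusted p = 0.00312). Hk2, the hexokinase gene, had -0.91 ± 0.19, Ldha, the lactate dehydrogenase gene, -0.58 ± 0.13, and Ddit4, an inhibitor of mTOR signalling, -0.82 ± 0.18 (edgeR adjusted p = 0.0158, 0.0196 and 0.0204). Without Rd10-3 the call of Ndrg1 held and those of Hk2, Ldha and Ddit4 were lost (adjusted p = 0.0667, 0.104 and 0.102). Hk2 was also lost without Rd10-4 (0.0545) and Ddit4 without Rd10-5 (0.0776). Ldha missed the threshold when WT-4, Rd10-4 or Rd10-5 was left out (0.0683, 0.0559 and 0.0513), against a fold of 1.2 (0.0652) and with library size alone (0.08). Rods express Hk2 and Ldha strongly, all 12 rod markers fell, and the part of rod loss in these falls was not tested. Among 9 HIF regulators, Hif3a rose by 1.59 ± 0.27 on the log2 scale, from 5.13 ± 1.7 to 15.5 ± 2 CPM (edgeR adjusted p = 0.00669), and none fell (3 lower at an unadjusted p under 0.05). DESeq2 called 1 of the 9 lower and limma voom none, and 4 were lower with the GC trend removed, 3 with inner neuron scaling, 2 without WT-1 and 1 without both WT-1 and Rd10-4. Hif1a and Epas1, genes of oxygen-regulated subunits like Hif3a, had -0.35 ± 0.17 and -0.38 ± 0.14 (edgeR adjusted p = 0.208 and 0.119).

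Of 15 markers of pericytes and smooth muscle, none rose and 1 fell by edgeR, with 1 higher at an unadjusted p under 0.05. DESeq2 and limma voom likewise called none higher and 1 lower. The gene that fell was Vtn, the vitronectin gene, which photoreceptors express too (1320 ± 210 to 487 ± 57 CPM), and it makes up most of the list's sum of 1180 to 1610 CPM in WT and 567 to 680 CPM in rd10. With the GC trend removed 3 of the 15 rose (Pdgfrb, Rgs5 and Abcc9), as did 2 with library size alone (Rgs5 and Abcc9), 2 without WT-1 (Pdgfrb and Abcc9) and 1 without both WT-1 and Rd10-4 (Abcc9). Of 9 tested markers of pigment epithelium and choroid, 3 fell and none rose, and the 10 listed summed to between 382 and 408 CPM in WT and 245 and 399 CPM in rd10. Of 26 inner neuron genes, 4 rose and none fell (8 higher and 1 lower at an unadjusted p under 0.05). Of the 26, 24 had positive log2 fold changes, with a median of 0.24. That count of 4 was between 0 and 11 with single libraries left out (11 without WT-1, 0 without WT-4 or Rd10-3, 1 without Rd10-5, 2 without Rd10-4) and 15 with library size alone. With the GC trend removed, 14 were called higher and 1 lower. Red blood cell genes summed to at most 4.91 CPM and lens genes to at most 21 CPM in any library.

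The genes whose levels followed Kdr most closely over the 6 libraries were Rassf4, S100a10, Cyp2j6, Mr1 and Cyp4v3, in a comparison with 11360 genes whose mean level reached 5 CPM. Likeness was the root mean square difference of centred log2 CPM, which ran from 0.0557 for Rassf4 to 0.0721 for Cyp4v3. For Vegfa the nearest were Snrnp70, Cgn, Prr3, Fam189a2 and Ybey, at 0.0417 to 0.0571. These lists are a description over 6 libraries, with no test.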

How the data were processed

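Per the labels' protocols, total RNA from a column kit with DNase treatment went into strand-specific libraries by a modified TruSeq protocol. The submitters' processing notes name mm10 as the build and edgeR, HTSeq and TopHat2 2.1.0 as tools; how each was set, with which annotation and whether by strand, is not given here. One table from the authors holds deposited counts per gene as whole numbers. In a second table the authors deposited 1 FPKM per group, a log2 fold change and a p-value for 3427 genes. It holds 6 of the 10: Pgf, Kdr, Nrp1 and Vwf, and also Flt1 and Angpt1, which were not called here. Its title names limits on p, fold and FPKM, so it is a selected list. Only positions and FPKM are printed from it. A column's name gave its genotype only, since the numbers in the column names are not, as a set, the replicate numbers of the titles.

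Genes passing filterByExpr (13905) were tested with edgeR 4.0.16 under R 4.3.3 (TMM, robust quasi-likelihood, genotype only). Level differences within libraries used log2 CPM with a prior count of 2. GENCODE M21 (GRCm38) supplied transcript lengths, GC content and the positions of Pgf, Nrp1 and Vwf. On simulated data of 13905 genes, 6.1% of the 82 with a true fold of 1.5 were called. The share was 56.4% of the 55 with a fold of 2 and 98.4% of the 61 with a fold of 4. In the same simulation 18 genes without a true change were called. Among all genes called there, these 18 made up a larger share than the threshold of 0.05 on adjusted p aims for. In that 1 simulation the test thus exceeded its stated rate of false calls. The simulation changed far fewer genes than were called in the real comparison, so its rates need not hold there. Alternatives were DESeq2 1.42.0, limma voom (limma 3.58.1), other scalings and filters, a minimum fold, removal of a GC trend and leaving out libraries; leaving out WT-1 and Rd10-4 together was chosen after seeing the data. The 10 genes, the gene lists and the rule for named genes (all 10; from a list set beside a result up to 4 called genes by p, and where there were none the 2 with the highest level; any gene that completes a count; the 5 most like Vegfa and Kdr) were chosen with earlier results of these data known; Pecam1, Cdh5, Ly6c1, Plxnd1, Lrp5, Angpt2, Ptprb, Tie1, Nrp2, Apln, Hif1a, Epas1, Pdgfrb, Rgs5, Abcc9 and the platelet genes not tested were named after their values were seen.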

Additional observations from a re-analysis of the deposited data

How the results depend on the processing

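Kdr and Pgf kept their calls in all 17 alternatives, with log2 fold changes from 0.65 to 1.16 and from 1.33 to 1.82. Of the 10 genes, between 2 and 4 were called with single libraries left out (2 without WT-4: Kdr and Pgf), 6 with library size alone and with the GC trend removed, and 3 with inner neuron scaling and against a fold of 1.2. Signs of genes not called turned for Vegfa with inner neuron scaling (-0.20), with the GC trend removed (-0.01), without WT-4 (-0.03) and without Rd10-4 (-0.08), for Vegfb with inner neuron scaling (-0.17) and the GC trend removed (-0.02), and for Tek with inner neuron scaling (-0.24) and without WT-23 (-0.05). With single libraries left out, Vegfa ran from -0.08 to 0.16 and Tek from -0.05 to 0.12. The cause was not tested. Over all genes the 2008 calls became 3043 with library size alone (81.2% higher in rd10, against 49.3% with TMM), 3498 with inner neuron scaling (18% higher), 1285 against a fold of 1.2, 4778 with the GC trend removed, and 885 to 3214 with single libraries left out. The 55 calls among the other lists became 84 with the GC trend removed. Relative to endothelial markers, differences with the median of the list were 0.534 for Kdr, 1.08 for Vwf, -0.0247 for Flt1 and -0.361 for Tek. No paired analysis was possible because the numbers in the column names are not, as a set, the replicate numbers of the labels. Low counts limit Pgf, Vegfc and Angpt1 most; 12 counts were the fewest for Pgf in a library.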
